A study of Drosophila melanogaster with 3 samples.

Results

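The eukaryotic initiation factor (eIF) genes encode the proteins that bring a ribosome to the start codon of an mRNA. They were taken as the protein-coding genes of the Ensembl annotation whose symbol starts with eIF, and the 44 genes so found are 44 of the 13945 protein-coding genes on the 6 chromosome arms examined. The data are chromatin immunoprecipitation with sequencing (ChIP-seq) of putzig, a zinc-finger chromatin protein, in whole Drosophila melanogaster embryos aged 0 to 24 h and of both sexes. The embryos carried a transgene for putzig fused to GFP at its C terminus, and the labels name a single line as the source of all 3 biological replicates, which form 1 group without a mutant or untreated counterpart. The description of each library also calls it an input control, against its assay and antibody fields, which name putzig.

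Initiation runs through a fixed cast of factors. eIF2 carries the initiator tRNA to the small ribosomal subunit and is recharged by its exchange factor eIF2B, eIF3 is the large scaffold on that subunit, and the eIF4 proteins bind the cap of the mRNA and unwind its leader. eIF1 and eIF1A guard the choice of start codon, eIF5 and eIF5B complete start-site recognition and subunit joining, and eIF6 keeps free large subunits apart from small ones. Putzig is known from Drosophila as a partner of the TATA-box-binding-protein-related factor TRF2 and of DREF, the factor that binds the DNA replication-related element (DRE), and it is also tied to the nucleosome remodelling complex NURF.

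Putzig was present at the start of nearly every eIF gene that has no second copy, and at few of the duplicates. A gene was called bound when the summit of a peak of the reproducible list lay within 250 bp of one of its annotated transcription start sites (TSSs). By that measure 34 of the 44 eIF genes were bound (77.3%), against 42.6% of all protein-coding genes (5939 of 13945). Of the 28 single-copy eIF genes 27 were bound, and eIF3l was the exception. Of the 6 main copies, each the lowest-numbered gene of a factor subunit with more than 1 gene, 5 were bound, against 2 of the 10 duplicates. Each replicate's own list was cut to its strongest peaks, as many as the reproducible list holds. Counted from these, the bound single-copy genes numbered 26, 27 and 26, the bound main copies 5, 6 and 5, and the bound duplicates 2, 2 and 2 in replicates 1, 2 and 3. All eIF genes bound by that count came to 33.7 ± 1.15 of 44 (SD, n = 3). The fixed list length limits how far these counts can differ, so their spread is no measure of the error of a difference between classes of genes. No test was made of the difference between copies, since the genes were chosen with earlier results of these data known.

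**Figure D1:**
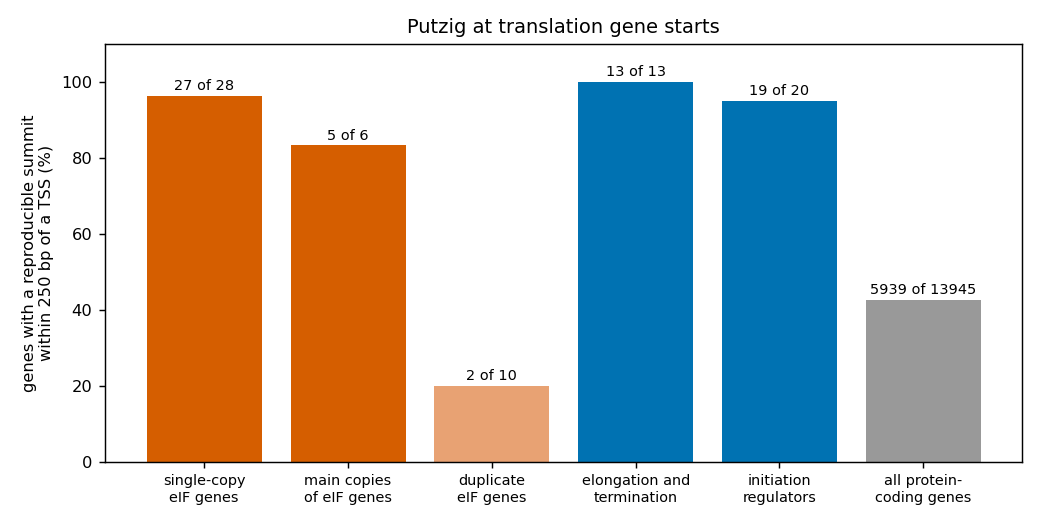
Share of genes (%) with a reproducible putzig summit within 250 bp of a TSS, with the number of genes above each bar, for 3 classes of eIF genes, for 2 other lists of translation genes and for all protein-coding genes. The single-copy genes (27 of 28) and main copies (5 of 6) stand above all protein-coding genes (5939 of 13945), and the duplicates (2 of 10) stand below them.

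The strength of a peak is given as the deposited signal, whose scale is not named, and as its rank in its list, in which rank 1 is the strongest. A ratio of signals cannot be read as a ratio of reads. The median signal of the 34 bound eIF genes was 2106, against 1517 for all bound protein-coding genes. Of the 34, 23 lay above that second value, 14 were at or above the 75th percentile of bound genes (2488) and 5 at or below the 25th (864). In the replicates' own lists the ratio of the median signal at bound eIF genes to that at all bound genes was 1.48, 1.39 and 1.27, with a mean of 1.38 ± 0.107 (SD, n = 3). The eIF genes were therefore spread over most of the list, from rank 97 to rank 6247, with more of them in the strong part.

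eIF2, the tRNA carrier, was bound at all 3 subunit genes. eIF2gamma, the GTP-binding subunit, had a signal of 4475 (rank 278) and ranks of 291, 365 and 160 in replicates 1, 2 and 3. eIF2alpha, the subunit whose phosphorylation slows initiation under stress, had 3582 (rank 506) and ranks of 535, 527 and 441. eIF2beta had 2002 (rank 1655), with ranks of 1699, 1345 and 2733. Their order was the same in each replicate, with eIF2gamma strongest and eIF2beta weakest. The initiation factor eIF2A, which is no subunit of eIF2, had the strongest peak of all eIF genes in the reproducible list, with a signal of 6168 (rank 97) and ranks of 128, 89 and 58, and in replicate 1 it stood behind eIF2Bepsilon (rank 116). eIF2D, a factor that also acts in ribosome recycling, had 574 (rank 4655) and ranks of 4779, 4754 and 4195, below eIF2A and all 3 eIF2 subunit genes in every list.

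eIF2B, the complex that recharges eIF2, was bound at all 5 subunit genes and spanned almost the whole range of strengths. Its catalytic subunit gene eIF2Bepsilon had a signal of 5783 (rank 122) and ranks of 116, 121 and 114 in replicates 1, 2 and 3. eIF2Bdelta had 4652 (rank 248), with 293, 258 and 178. Both peaks were among the strongest at eIF genes in all replicates, but both summits were nearer to the start of another gene, at −68 bp from eIF2Bepsilon and −39 bp from Ocrl, and at −56 bp from eIF2Bdelta and −2 bp from roh. eIF2Balpha had 1706 (rank 2070) and eIF2Bgamma 899 (rank 3719). eIF2Bbeta had 263 (rank 6247), the weakest peak of all bound eIF genes, and its own summits ranked 6617, 5781 and 16744, so that it was among the strongest peaks, by the same list length, in replicate 2 alone. The genes for the subunits of this complex therefore differed widely in their peaks, and the order eIF2Bepsilon, eIF2Bdelta, eIF2Balpha, eIF2Bgamma, eIF2Bbeta was kept in each replicate.

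eIF3, the scaffold on the small subunit, was bound at 12 of its 16 genes, with signals of 827 to 4311 and a median of 2498. eIF3h had the highest (4311, rank 318), with ranks of 344, 297 and 310 in the replicates. It was followed by eIF3d1 (4185), whose mammalian counterpart can itself contact the cap, by eIF3a (4127), a core subunit, and by eIF3f1 (3788). Ranks were 333, 351 and 352 for eIF3d1, 399, 357 and 279 for eIF3a, and 473, 458 and 372 for eIF3f1. eIF3f1 was the last of these 4 in each replicate, and the others exchanged places between replicates. eIF3k (2872) and eIF3j (2793), a loosely attached subunit, followed, then the core subunit genes eIF3c (2203) and eIF3b (2096). eIF3m (1234), eIF3i (1193), eIF3e (1068) and eIF3g1 (827) had the lowest signals of the bound eIF3 genes. The 4 unbound genes of the complex were eIF3l and the duplicates eIF3d2, eIF3f2 and eIF3g2.

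The eIF4 group had the lowest share of bound genes, 7 of 13, with signals of 547 to 4707, and 5 of its 6 unbound genes were duplicates. The strongest was eIF4G2 (4707, rank 239), a duplicate, followed by the cap-binding gene eIF4E1 (3951, rank 392), with ranks of 386, 442 and 362 in the replicates. eIF4H1 (2115), a cofactor of the helicase, eIF4EHP (1948), a cap-binding protein that represses translation, and eIF4A (1782), the RNA helicase itself, lay in the middle. eIF4E6 had 1664 and eIF4B, a second helicase cofactor, 547 (rank 4742). The unbound members were eIF4G1, eIF4E3, eIF4E4, eIF4E5, eIF4E7 and eIF4H2.

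The remaining factors were all bound. eIF1A had 2411 (rank 1221) and eIF1 had 1120 (rank 3155). Of the factors of the last steps, eIF5B had 1206 (rank 2969), close to eIF1, and a weaker peak of 329 (rank 5725) stood at eIF5, the GTPase-activating protein of eIF2. eIF6 had 2767 (rank 914), with ranks of 876, 1139 and 773 in the replicates. No factor group with all its genes single-copy held an unbound gene.

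**Figure D2:**
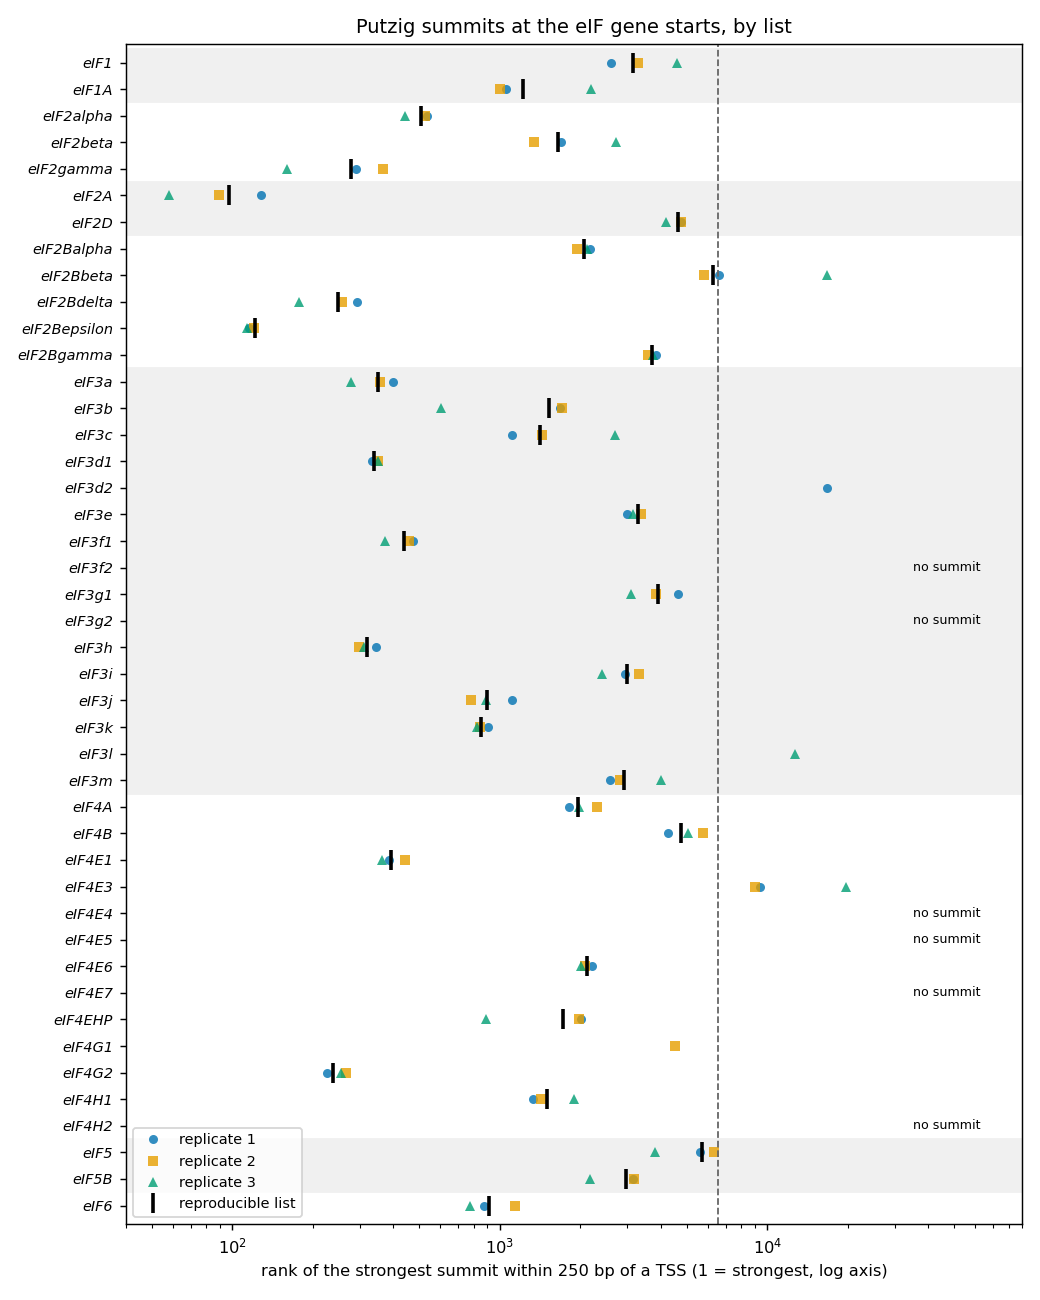
Rank of the strongest putzig summit within 250 bp of a TSS (log axis, 1 is the strongest) for each of the 44 eIF genes, grouped by factor with shaded bands, in the reproducible list (black bars) and in each replicate's full list (coloured symbols). The dashed line marks the length of the reproducible list. eIF2A and eIF2Bepsilon lie furthest to the left, and 6 unbound genes have no summit in any list.

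The replicates gave similar orders. A replicate held a summit when its own strongest peaks, cut to the same list length, included a peak spanning that summit, and 31 of the 34 bound eIF genes had their summit held by all 3, a share close to the 90.7% of all bound protein-coding genes. Replicates 1, 2 and 3 held 33, 34 and 31 summits. The 3 genes not held throughout were eIF2Bbeta, eIF1 and eIF3c. For the last 2, replicate 3 had summits of its own within 250 bp of the TSS, at rank 4599 and 214 bp downstream for eIF1 and at rank 2704 and 0 bp for eIF3c, in peaks that did not span the reproducible summit. Over the bound eIF genes whose summit both replicates' full lists spanned with a peak, Spearman's rho of those peaks' ranks was 0.967 between replicates 1 and 2 (n = 34), 0.948 between 1 and 3 (n = 32) and 0.937 between 2 and 3 (n = 32), a description only, since the libraries come from 1 line and, per the deposited notes, share a control.

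Summits at eIF genes lay close to the TSS, mostly just upstream. The median offset was −37 bp, against −44 bp for all bound protein-coding genes, and the range was −99 to 53 bp. All 34 lay within 100 bp, which 78.7% of all bound genes did. The summit was upstream of the TSS at 27 genes (79.4%, against 86.4% of all bound genes), downstream at 6 and exactly at it at 1, eIF3e. By annotation, 24 summits were outside the transcribed part of their gene and 10 were in a 5′ untranslated region. In the replicates' own lists the median offsets were −42, −33 and −32 bp (−35.7 ± 5.51 bp, SD, n = 3), so the difference of medians from all bound genes was of the size of a few base pairs and close to the spread between replicates. In the plot of offsets, drawn from the reproducible list, no eIF gene falls in the upstream tail beyond 100 bp. This did not hold in every replicate's own list. The strongest summit of eIF4A lay at −130, −108 and −211 bp in replicates 1, 2 and 3, against −97 bp in the reproducible list. That of eIF1A lay at −129 bp in replicate 2, and that of eIF1 lay 214 bp downstream in replicate 3.

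**Figure D3:**
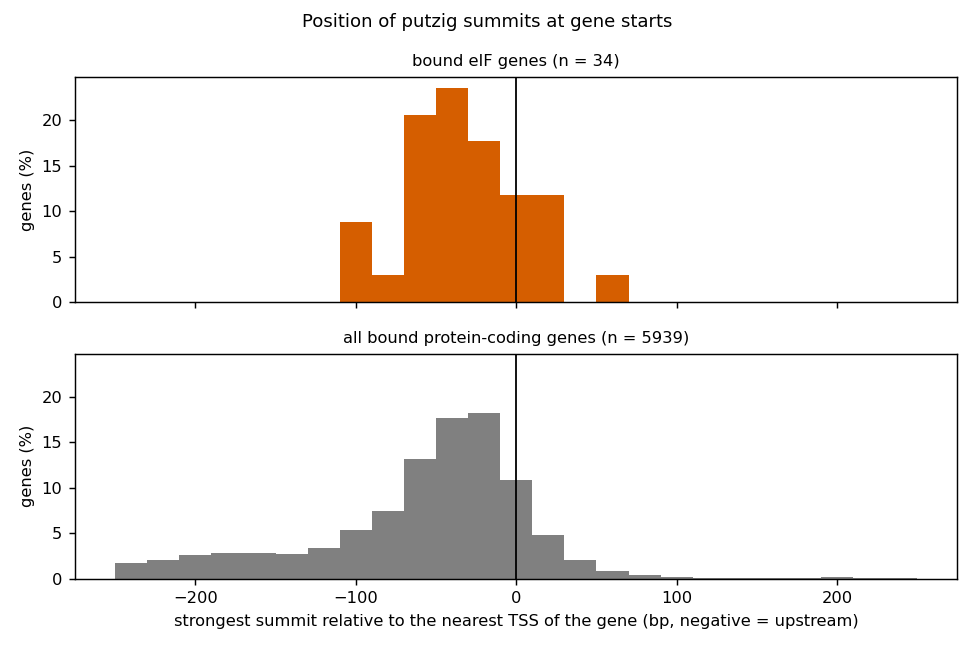
Share of genes (%) by the position of the strongest reproducible summit relative to the nearest TSS of the gene, in bins of 20 bp with negative values upstream, for bound eIF genes (upper panel) and for all bound protein-coding genes (lower panel). All 34 eIF summits lie within 100 bp of the TSS, while the lower panel has a tail further upstream.

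Many eIF genes start beside another gene, and a ChIP summit between 2 starts cannot be assigned to either. At 12 of the 34 bound eIF genes the strongest summit also lay within 250 bp of a TSS of another gene, beside 41.4% of all bound protein-coding genes. At 9 of the 12 the other TSS was on the opposite strand alone. eIF2Bepsilon faced Ocrl with 107 bp between the TSSs, eIF2Bdelta faced roh (58 bp), eIF2Balpha faced Vps13B (90 bp) and eIF1A faced Vps39 (219 bp). eIF3a faced CG1074 (70 bp), eIF3h senju (63 bp) and eIF3m CG8323 (226 bp). eIF4E6 faced CG1951 (62 bp) and eIF6 the noncoding asRNA:CR45928 (29 bp). With each summit given to its nearest TSS alone, eIF2Bdelta, eIF2Bepsilon, eIF3a, eIF4E6 and eIF6 lost theirs to these neighbours. eIF2gamma is annotated with the same TSS as Su(var)3-9, the histone methyltransferase of heterochromatin, and faces the gene Set at 94 bp. eIF4G2 shares its TSS with CG33111 and eIF5 shares its own with CG46312.

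With the wider measure of a TSS on the opposite strand within 500 bp, 16 of the 34 bound eIF genes had such a neighbour, beside 53.1% of all bound protein-coding genes. Of the 10 unbound ones 3 had one, beside 14.3% of all unbound protein-coding genes. They were eIF3d2 (CG43450, at 283 bp), eIF3g2 (Tmlh, at 394 bp) and eIF3l (Nrx-IV, at 422 bp). Over all protein-coding genes, 73.4% of those with such a neighbour were bound and 28.9% of those without. Of the 25 eIF genes without one 18 were bound, so binding at the eIF genes was not limited to paired promoters.

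The promoter DNA at bound eIF genes was searched on both strands, within 100 bp of the summit, for 3 elements, and positions below are those of a motif's centre relative to the TSS. The DRE (TATCGATA) was found at 10 of the 34 bound genes (29.4%), and 17.4% of all bound protein-coding genes had it. Motif 1 (GGTCACAC), a core promoter element of housekeeping genes bound by the factor M1BP, was found at 7 (20.6%), beside 16.1% of all bound genes. The count was also 7 within 50 bp, beside 10.8%, and within 200 bp, beside 19.1%. An E-box (CAGCTG) was found at 3, beside 21.4%. At least 1 DRE or Motif 1 was present at 15 of the 34, beside 31.8% of all bound genes, and both were present at 2, eIF2A and eIF2alpha. The 12 DREs lay 5 to 52 bp from their summits (median 32.5 bp) and the 8 copies of Motif 1 lay 0 to 70 bp away (median 21.5 bp). At eIF3i the summit fell on the motif itself.

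The sequences that follow show these elements at 5 bound starts of eIF2, eIF2B and eIF3, and at the unbound start of eIF3l. Each was read from the RefSeq genome of assembly dm6, runs 5′ to 3′ along the gene's own strand, and ends 10 bp after the TSS, having begun 100 bp before it (85 bp for eIF3a). Capitals mark the DRE, Motif 1 and the shorter CGATA, the right-hand part of the DRE, in either orientation.
eIF2alpha (chrX:16446983-16447093, minus strand): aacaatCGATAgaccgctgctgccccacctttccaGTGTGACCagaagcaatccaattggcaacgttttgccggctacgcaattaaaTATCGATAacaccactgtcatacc
eIF2gamma (chr3R:15263448-15263558, minus strand): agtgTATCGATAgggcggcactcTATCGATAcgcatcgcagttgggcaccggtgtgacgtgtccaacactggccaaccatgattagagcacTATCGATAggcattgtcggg
eIF2Bepsilon (chrX:1922864-1922974, minus strand): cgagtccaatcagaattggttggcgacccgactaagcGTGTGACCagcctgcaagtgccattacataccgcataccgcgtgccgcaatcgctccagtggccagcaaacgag
eIF3a (chr3R:4433885-4433980, minus strand): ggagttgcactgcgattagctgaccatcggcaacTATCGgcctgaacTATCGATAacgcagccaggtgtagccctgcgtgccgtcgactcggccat
eIF3f1 (chr3R:4714172-4714282, minus strand): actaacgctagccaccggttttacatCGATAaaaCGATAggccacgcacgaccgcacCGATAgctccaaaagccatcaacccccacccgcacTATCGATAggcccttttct
eIF3l (chr3L:12146087-12146197, minus strand): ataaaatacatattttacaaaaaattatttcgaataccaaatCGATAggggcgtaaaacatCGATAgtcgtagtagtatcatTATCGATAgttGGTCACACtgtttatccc

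In eIF2gamma 3 DREs stood 6, 74 and 93 bp upstream of the TSS, the most at any eIF gene, and the summit lay 41 bp upstream, among them. eIF2alpha had a DRE 10 bp and a Motif 1 copy 62 bp upstream, with its summit 27 bp upstream, between the pair. In eIF2Bepsilon the nearer of 2 Motif 1 copies was 60 bp upstream and 8 bp from the summit. eIF3a had its DRE 35 bp and eIF3f1 its DRE 5 bp upstream, which were 15 and 24 bp from their summits. The other bound genes with a DRE were eIF2A, eIF2Bbeta, eIF4A, eIF4B, eIF4E6 and eIF6, and the other ones with Motif 1 were eIF2A, eIF2beta, eIF3i, eIF3k and eIF5B. The 10 bound eIF genes with a DRE had a median signal of 3175, against 2049 for the 24 without it, and over all bound protein-coding genes the medians were 1716 with it and 1466 without it. The set with a DRE included both eIF2A, the strongest, and eIF2Bbeta, the weakest.

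The pentamer CGATA was added to the search after its occurrences had been seen. It was present within 100 bp of the summit at 26 of the 34 bound eIF genes, beside 57.8% of all bound protein-coding genes. It lies inside every DRE, so the 2 counts overlap.

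eIF3l is the single-copy gene that the bound set lacks, although its start holds a DRE 15 bp and a Motif 1 copy 4 bp upstream of the TSS. Within 100 bp of a TSS, a DRE was found at 8.49% of all protein-coding genes and Motif 1 at 7.56%, and 88.3% of the genes with the DRE and 93.3% of those with Motif 1 were bound. The nearest reproducible summit was 391 bp from the TSS of eIF3l, at rank 2598 with a signal of 1391, and stood 31 bp from the TSS of Nrx-IV, a septate-junction gene that starts on the other strand. Replicate 3 had a weak summit of its own at rank 12675, 96 bp downstream of the eIF3l TSS, and replicates 1 and 2 had none within 250 bp. The summit was thus nearer to Nrx-IV, and eIF3l counted as bound only when the window was widened to 500 bp.

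**Figure D4:**
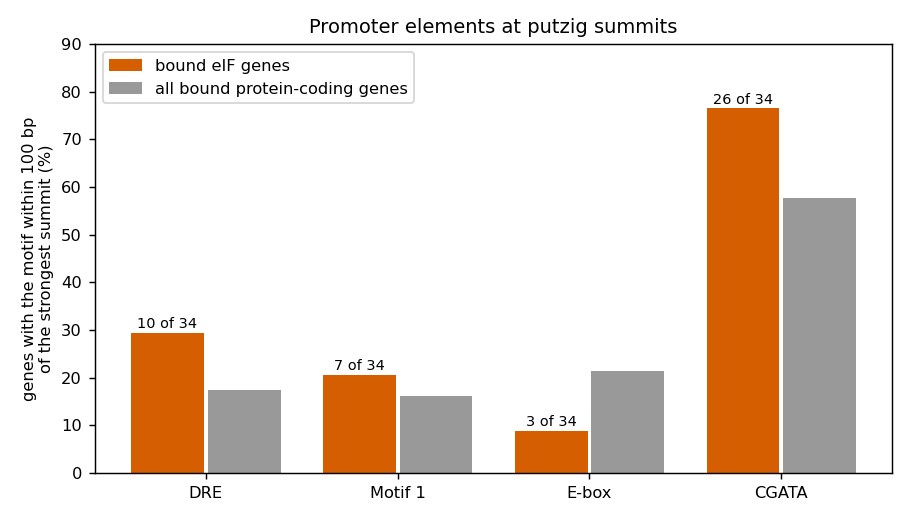
Share of genes (%) with each element within 100 bp of the strongest reproducible summit, for bound eIF genes (with their number above the bar) and for all bound protein-coding genes. The bars of the DRE (10 of 34) and CGATA (26 of 34) are taller at eIF genes, that of the E-box (3 of 34) is shorter, and Motif 1 was found at 7 of 34.

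A further element was searched at the TSS itself. Genes for ribosomal proteins and translation factors of Drosophila often start at a TCT initiator, in which transcription begins at a C followed by a run of T. Its core CTTT, on the gene's own strand with its C within 10 bp of a TSS, was found at 10 of the 44 eIF genes, and 14.9% of all protein-coding genes had it. The 10 were eIF1A, eIF3c, eIF3d1, eIF3e, eIF3f1, eIF3g1, eIF3i, eIF3m, eIF4A and eIF4E1. Of these 7 belong to eIF3, and all 10 were bound. Among all bound protein-coding genes 16.6% had the core, close to the 14.9% of all protein-coding genes. By class it was found at 6 of 28 single-copy genes, 4 of 6 main copies and 0 of 10 duplicates. A core of 4 letters is short, so a match is only a description of these letters.

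Within a factor, main copies and duplicates are set side by side in the starts below. They are shown because the bound and unbound copies encode related proteins from different promoters, with the same marks and spans as above (80 bp before the TSS for eIF4E6). eIF3d1, eIF3g1, eIF4E1, eIF4E6, eIF4G2 and eIF4H1 were bound, and eIF3d2, eIF3g2, eIF4E3, eIF4E4, eIF4E7, eIF4G1 and eIF4H2 were not.
eIF3d1 (chr3R:23679939-23680049, plus strand): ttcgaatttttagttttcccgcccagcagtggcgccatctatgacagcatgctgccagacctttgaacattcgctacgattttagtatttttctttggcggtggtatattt
eIF3d2 (chr3R:12195001-12195111, minus strand): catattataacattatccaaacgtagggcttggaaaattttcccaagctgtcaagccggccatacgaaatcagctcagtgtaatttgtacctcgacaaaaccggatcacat
eIF3g1 (chrX:2610326-2610436, minus strand): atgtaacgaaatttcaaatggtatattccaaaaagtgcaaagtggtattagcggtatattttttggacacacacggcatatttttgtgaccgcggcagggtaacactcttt
eIF3g2 (chr3R:20408165-20408275, plus strand): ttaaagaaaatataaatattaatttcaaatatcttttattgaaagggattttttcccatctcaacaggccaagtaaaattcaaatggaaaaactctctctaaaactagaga
eIF4E1 (chr3L:9402450-9402560, minus strand): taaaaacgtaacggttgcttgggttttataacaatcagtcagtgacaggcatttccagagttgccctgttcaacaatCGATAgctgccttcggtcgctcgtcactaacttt
eIF4E6 (chr3R:29027164-29027254, minus strand): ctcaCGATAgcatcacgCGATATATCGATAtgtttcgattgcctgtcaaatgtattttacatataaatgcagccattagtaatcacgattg
eIF4E3 (chr3L:8229124-8229234, plus strand): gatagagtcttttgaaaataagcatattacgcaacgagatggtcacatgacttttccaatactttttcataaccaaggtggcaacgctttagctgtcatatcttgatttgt
eIF4E4 (chr3L:6665631-6665741, minus strand): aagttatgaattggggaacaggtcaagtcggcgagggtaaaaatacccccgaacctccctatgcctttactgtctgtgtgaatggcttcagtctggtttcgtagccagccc
eIF4E7 (chrX:1162379-1162489, minus strand): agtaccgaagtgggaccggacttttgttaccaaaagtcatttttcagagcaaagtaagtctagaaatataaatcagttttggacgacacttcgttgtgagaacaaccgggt
eIF4G1 (chr4:930705-930815, minus strand): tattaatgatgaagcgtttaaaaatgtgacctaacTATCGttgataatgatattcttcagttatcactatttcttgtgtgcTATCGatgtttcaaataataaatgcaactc
eIF4G2 (chr3R:23819227-23819337, minus strand): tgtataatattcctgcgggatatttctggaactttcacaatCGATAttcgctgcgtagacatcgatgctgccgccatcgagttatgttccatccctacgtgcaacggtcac
eIF4H1 (chrX:16448565-16448675, plus strand): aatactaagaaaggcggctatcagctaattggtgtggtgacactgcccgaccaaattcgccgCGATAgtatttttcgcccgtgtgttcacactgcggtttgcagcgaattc
eIF4H2 (chr3R:30725987-30726097, plus strand): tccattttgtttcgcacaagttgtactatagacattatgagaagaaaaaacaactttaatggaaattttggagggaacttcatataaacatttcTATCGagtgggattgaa

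Within 100 bp of a TSS, 8.49% of all protein-coding genes had the DRE and 7.56% had Motif 1. The DRE was found at 9 of 28 single-copy genes, 1 of 6 main copies and 1 of 10 duplicates. Motif 1 was found at 8, 0 and 0 of them. CGATA was found at 20 of 28 single-copy genes, 5 of 6 main copies and 3 of 10 duplicates, beside 44.7% of all protein-coding genes. The duplicate with the DRE was eIF4E6, 1 of the 2 that were bound. Of the main copies only eIF3f1 had one. Whether the DRE bears on the difference in binding between main copies and duplicates was not tested.

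The eIF3 duplicates each stood apart from their main copy. eIF3d1 ranked 333, 351 and 352 in replicates 1, 2 and 3, whereas eIF3d2, whose protein shares 67.5% of aligned residues with it, had a summit within 250 bp in replicate 1 alone, at rank 16672. eIF3f1 ranked 473, 458 and 372, and eIF3f2 (40.6% identity) had no summit in any replicate. eIF3g1 ranked 4626, 3827 and 3090, and eIF3g2 (72.3% identity), which lies inside the gene Gfrl, had none either. Of the bound eIF genes, eIF4G2 and eIF6 also lie inside other genes. The nearest reproducible summits were 24682, 13322 and 56160 bp from the TSSs of eIF3d2, eIF3f2 and eIF3g2. In these 3 pairs, with identities of 40.6% to 72.3%, the main copy was bound and the duplicate was not.

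The cap-binding eIF4E family holds 6 genes, eIF4EHP being counted apart, of which 2 were bound. eIF4E1 had a signal of 3951 and eIF4E6 one of 1664, with ranks of 386, 442 and 362 for eIF4E1 and of 2222, 2085 and 2019 for eIF4E6 in the 3 replicates. eIF4E6 encodes the shortest of these proteins, with 173 residues, against 259 for eIF4E1, and an identity of 51.5% over the aligned part. Its summit was 60 bp from its own TSS and 2 bp from that of CG1951, and when each summit was given to its nearest TSS alone, it went to CG1951. eIF4E3, a copy known for its part in spermatogenesis, came next, with a summit at rank 9370 of the pooled list (signal 115), 22 bp upstream of its TSS, and own ranks of 9413, 8976 and 19742. eIF4E4, eIF4E5 and eIF4E7 had no summit within 250 bp in any list, and their nearest reproducible summits were 37935, 17182 and 52796 bp away. Identity to eIF4E1 was 48.3% for eIF4E3, 63.1% for eIF4E4, 56.8% for eIF4E5 and 53.5% for eIF4E7, so the bound copy was not the closest one.

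In eIF4G, the scaffold that joins cap and ribosome, the order was turned round. The duplicate eIF4G2, which male germ cells need, ranked 227, 267 and 256 in replicates 1, 2 and 3, and its start is also that of CG33111. Its protein shares 28.7% of aligned residues with that of eIF4G1, the lowest identity of any duplicate to its main copy. The main gene eIF4G1, on chromosome 4, was not bound, and its nearest reproducible summit was 5779 bp away at mGluR. Replicate 2 alone had a summit at eIF4G1, 13 bp upstream of its TSS, at rank 4511 with a signal of 268, and replicates 1 and 3 and the pooled list had none within 250 bp. Of the strongest peaks, cut as above, some had their summit in no pooled peak. They numbered 49 in replicate 2, 36 in replicate 1 and 202 in replicate 3. Among the strongest peaks on chromosome 4 they were 5 of 72, 5 of 72 and 0 of 39, in the same order. In replicates 1 and 2 such peaks were therefore a larger share on chromosome 4 than over the whole cut list. In replicate 3 they were a smaller share there. On chromosome 4, 47 of 80 protein-coding genes were bound (58.8%), beside 42.6% of all protein-coding genes. Whether the chromosome bears on the call at eIF4G1 was not tested. The main gene eIF4H1 ranked 1329, 1428 and 1895, and its duplicate eIF4H2 (45.7% identity) had no summit within 250 bp in any list and none of the reproducible list nearer than 55735 bp.

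**Figure D5:**
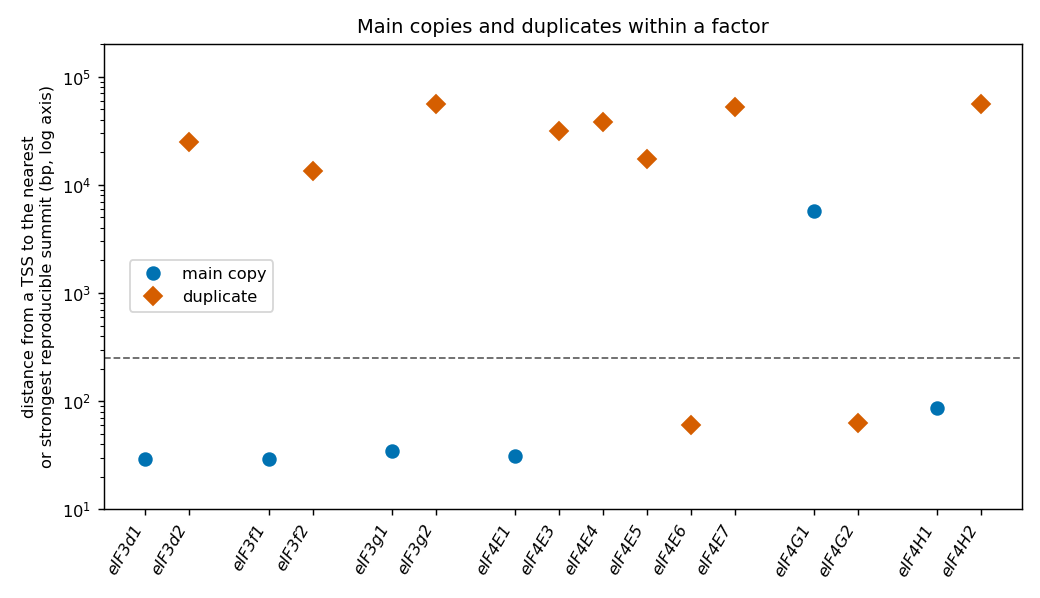
Distance in bp (log axis) from a TSS of each main copy (circles) and duplicate (diamonds) of the eIF genes to its strongest reproducible summit where bound, or otherwise to the nearest reproducible summit, with 250 bp marked by the dashed line. The 5 bound main copies lie below the line with the duplicates eIF4E6 and eIF4G2, and the other 8 duplicates and eIF4G1 lie above it.

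Other translation genes had putzig at their starts about as often as the single-copy eIF genes. All 13 listed genes of elongation and termination were bound, with signals of 321 to 5014 and a median of 1501, beside 42.6% of all protein-coding genes. Their summit was held by all replicates at 11 of the 13, beside 90.7% of all bound protein-coding genes. The strongest were eEF5 (5014), which helps ribosomes through proline-rich stretches, eEF1alpha1 (3317), which delivers aminoacyl-tRNA, HBS1 (2798), a rescue factor for stalled ribosomes, and the release factor gene eRF3 (2380). The HBS1 summit also lay within 250 bp of a TSS of CG12025, and the eRF3 summit within 250 bp of a TSS of SC35. Of 20 listed regulators of initiation 19 were bound, with signals of 295 to 11310.2 and a median of 1512, and 16 of the 19 were held by all replicates, beside the same 42.6% bound and 90.7% held. Their strongest 4 were NAT1 (11310.2, rank 7), a relative of eIF4G, Lk6 (10438, rank 13), the kinase of eIF4E, the helicase gene bel (7419) and pAbp (4745), the poly(A)-binding protein. NAT1 ranked 7, 4 and 11 and Lk6 11, 10 and 19 in replicates 1, 2 and 3, ahead of every eIF gene. The unbound one was the growth kinase gene mTor, whose nearest reproducible summit (signal 1576, rank 2254) lay at −299 bp, just outside the window. The medians of both lists were close to the 1517 of all bound protein-coding genes, against 2106 for the bound eIF genes.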

How the data were processed

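ChIP-seq peak lists of 3 replicates were used as deposited: 1 list per replicate (30000 entries each), 1 of the pooled replicates (30000) and 1 of reproducible peaks thresholded by the irreproducible discovery rate. The replicate and pooled lists contain background entries, and the reproducible peaks were found to be the top of the pooled list by signal, so they are not independent of the replicates. The signal column is the authors' deposited peak signal, used for ranks within a list and for ratios of medians. The deposited −log10 q value was 4.12 throughout the reproducible list and was not used for ranking. Coordinates are dm6, per the deposited notes. No source used here names the aligner or peak caller. Chromatin was sonicated to 200 to 800 bp, per the labels' protocols. Read depth is unknown, so no counting error is given and precision is the spread over replicates, which share 1 line. With the list length fixed, counts of bound genes can differ little between replicates.

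Genes and TSSs came from Ensembl release 115 and sequence from the RefSeq genome. A summit was the peak start plus the deposited summit offset. Genes were called bound, held or sharing a summit as the results define. Proteins were translated from the annotated coding sequence and aligned with Biopython 1.88 (BLOSUM62, gap costs 11 and 1). Other steps used Python 3.11.15, pandas 2.3.3 and numpy 2.4.6, and were tested on simulated starts and summits. The design has 1 group, and no p-value was computed. Every eIF gene is named. Of the 2 other lists, the 4 bound genes of highest signal and every unbound gene are named, and 2 listed symbols (Larp and Tor) were matched through older symbols. The eIF genes, the lists and the motifs were chosen with earlier results of these data known. Alternatives covered the TSS window, the TSS assignment, the peak set, the neighbour distance, the motif window and each replicate left out.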

Additional observations from a re-analysis of the deposited data

How the results depend on the processing

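The count of 34 bound eIF genes ranged from 27 to 35 over all alternatives, each beside the share of all protein-coding genes that the same setting gave. It was 27 (28.3%) with peaks above the median signal, 29 (36.1%) with each summit given to its nearest TSS, 32 (40.6%) with the 5′ end of the gene only, 34 (35.0%) and 35 (46.6%) with windows of 100 and 500 bp, and 35 (55.9%) in the pooled list at all ranks. Leaving out replicates 1, 2 and 3 in turn, that is, asking that the other 2 hold the summit, gave 31 (39.1%), 31 (39.2%) and 33 (41.3%). TSSs from RefSeq, an alternative chosen after seeing the data, gave 34 (42.6%). The count of all bound protein-coding genes stayed at 5939 with them, so this alternative was no separate check. The duplicates fell to 1 bound gene, eIF4G2, with each summit given to its nearest TSS, and eIF1, eIF2Bbeta and eIF3c were the genes lost when replicates were left out. With peaks above the median signal, the elongation and termination genes had 8 bound and the initiation regulators 12. With opposite-strand TSSs within 250 bp, 10 of the 34 bound eIF genes had a neighbour. The share of all bound protein-coding genes was not computed at that distance, so this count has no background beside it. With 200 bp around the summit, 7 bound eIF genes had an E-box (31.0% of all bound protein-coding genes). The other 62 recomputed values stayed within 1.5 times the value reported or within the spread between replicates. For counts, this compared the numbers of listed genes alone, not their difference from the share of all genes. No paired analysis was possible because there is 1 group. Depth is not known, so a gene without a summit was not detected in these lists, which does not show that putzig was absent. In mixed embryos of 0 to 24 h, binding in few cells and weak binding in many cannot be told apart.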
